A study of Drosophila melanogaster with 16 samples.

Results

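The histone mark H3K9me3 was followed over the transposon families of the Drosophila melanogaster ovary after piwi was knocked down in the germline. For each family, the reads-per-million (RPM) of the H3K9me3 library were divided by those of its input library, and this enrichment in nos-GAL4 piwi knockdown was divided by the enrichment in nos-GAL4 white knockdown. The result is called the H3K9me3 ratio here, and a value under 1 means less of the mark per unit of element DNA in the piwi knockdown. Of 125 families in the authors' table, 114 had at least 40 RPM in all 4 libraries and were kept.

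In the ovaries of interest piwi was knocked down under nos-GAL4, a driver active in germ cells, and in the control ovaries white, an eye pigment gene, under the same driver. Both sets came from flies aged 3 to 5 days and kept at 25 degrees, and chromatin of 50 ovaries was used per sample, split into an H3K9me3 immunoprecipitate and an input. The series holds 16 samples, which also cover the driver tj-GAL4, which works in the ovary's somatic cells, and the assays RNA-seq and GRO-seq (sequencing of nascent transcripts extended in a nuclear run-on). Each condition had 1 ChIP-seq library of each kind, so no H3K9me3 value has a replicate and no test of the knockdown was possible. The intervals below are 95% counting intervals from the reads behind each value and cover counting error only. Levels of piwi and white were not analysed here, so the knockdown itself was not checked.

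Piwi is a nuclear Argonaute protein that carries piRNAs, small RNAs that are largely antisense to transposons. When a piRNA pairs with a nascent transposon transcript, Piwi recruits factors that place H3K9me3 on the surrounding chromatin, and HP1 proteins bind the mark and hold the locus silent. Germ cells and the somatic follicle cells around them silence different sets of families. The ovary holds both, so the mark on copies in somatic cells is measured together with that in germ cells, and less mark per cell cannot be told apart from fewer cells that carry it.

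The 4 nos libraries held 2514000 to 2987000 reads. The 125 families took 29.1% of H3K9me3 reads and 9.47% of input reads in piwi knockdown, against 28.4% and 8.55% in white knockdown. R1A1-element alone, a retrotransposon that inserts into ribosomal RNA genes, accounted for 6.51% of H3K9me3 reads in piwi knockdown and 4.95% in white knockdown. Without it the share of H3K9me3 reads over transposons was 22.6% in piwi knockdown and 23.4% in white knockdown. The families together thus took nearly the same part of the H3K9me3 reads, while their part of the input reads was larger in piwi knockdown. Shares within a library cannot show a change common to all chromatin.

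The median H3K9me3 ratio of the 114 families was 0.888, a log2 value of -0.17, and 80% of the families were between 0.659 and 1.07 (the 10th and 90th percentiles). At least 2-fold lower ratios were found for 6 families (5.26% of those kept) and at least 2-fold higher ones for 0. A size of 1.5-fold, chosen with earlier results of these data known, was passed downwards by 13 families (11.4%) and upwards by 2 (1.75%). The 13 were, from the lowest up, TART-B, HeT-A, TAHRE, Bari1, TART-A, 3S18, jockey, Burdock, Juan, Transpac, mdg3, I-element and copia, and the 2 were NOF and transib4. Counting intervals were below 1 for 70 families (61.4%), the 13 among them, and above 1 for 7 (6.14%). The ratio itself was below 1 for 89 of the 114, so most families were a little lower, by less than 1.5-fold, though not all of these beyond counting error. That slight shift of the bulk depends on the input: in the H3K9me3 libraries alone, without input, the median ratio was 0.987, with 7 families at least 1.5-fold lower (6.14%) and 3 higher (2.63%), and with 4 at least 2-fold lower (3.51%) and 1, NOF, higher (0.877%). Input reads were higher in piwi than in white knockdown for 89 of the 114 families, with a median of 1.13 times.

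**Figure D1:**
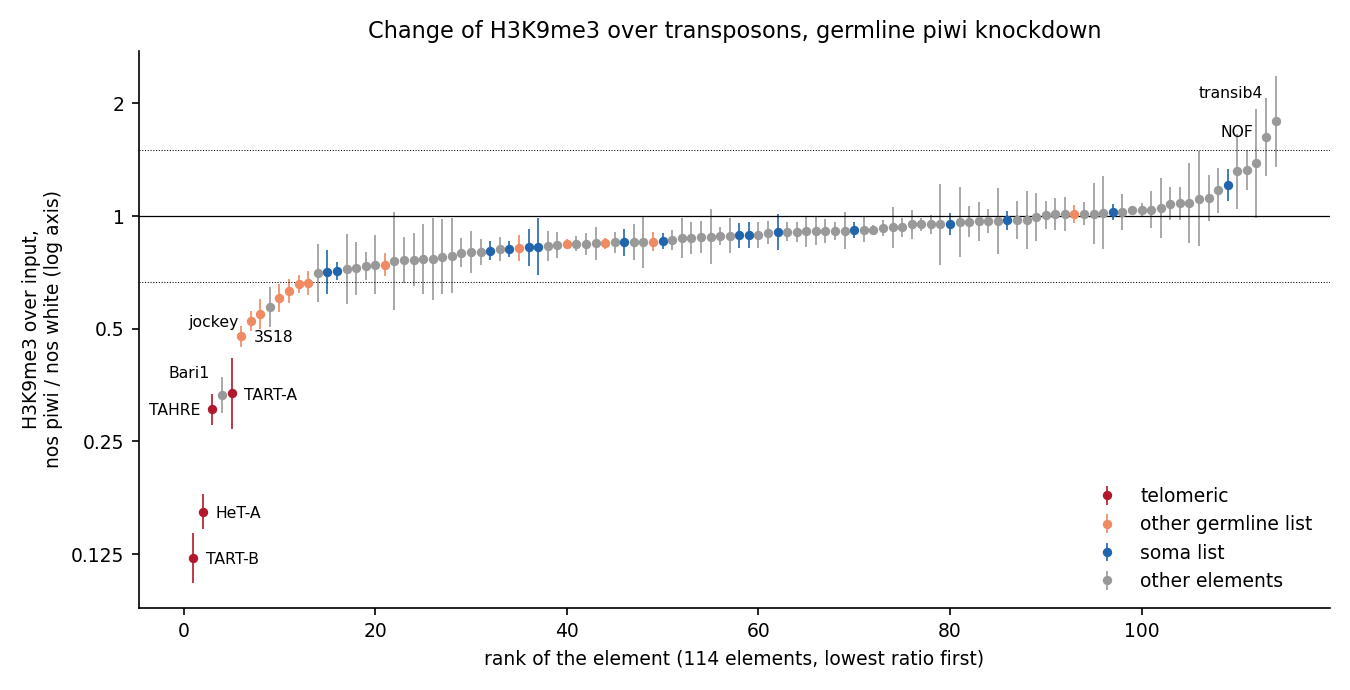
H3K9me3 over input in nos piwi knockdown divided by that in nos white knockdown (log axis), for 114 transposon families ordered by this ratio, with 95% counting intervals as bars and 1 library per condition and kind. The telomeric elements are at the far left, between 0.122 and 0.336, most families are between 0.659 and 1.07, and dotted lines mark 1.5-fold either way.

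The telomeric retrotransposons stood at the bottom of the order. HeT-A, TAHRE and TART are LINE-like elements that transpose onto chromosome ends and replace the telomerase of other organisms, and they are expressed in the germline. HeT-A had 208 RPM of H3K9me3 reads in piwi knockdown against 2096 RPM in white knockdown, while its input was 721 against 1181 RPM. Its enrichment was thus 0.288 in piwi and 1.77 in white knockdown, a ratio of 0.162 (0.146 to 0.181). HeT-A chromatin was marked above input in control ovaries and below input after the knockdown.

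TART-B had 141 RPM of H3K9me3 reads in piwi knockdown and 638 RPM in white knockdown, with input at 403 and 223 RPM. Enrichments of 0.349 and 2.86 gave a ratio of 0.122 (0.105 to 0.142), the lowest of the 114. TAHRE, the element thought to supply the reverse transcriptase that HeT-A lacks, had 343 RPM in piwi and 1759 RPM in white knockdown over inputs of 590 and 923 RPM, a ratio of 0.305 (0.277 to 0.336). TART-A was the least abundant of those kept, with 116 RPM in piwi and 164 RPM in white knockdown over inputs of 171 and 81.2 RPM, a ratio of 0.336 (0.270 to 0.419).

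TART-C fell just short of the minimum, with 39.4 RPM, or 99 reads, of H3K9me3 in piwi knockdown against 379 RPM in white knockdown. Its input was nearly level, at 127 and 142 RPM, and its ratio was 0.116 (0.0899 to 0.149). The rule removed this family because of its low value in piwi knockdown, so the 4 telomeric elements kept are not all of them. Looper1 at 39.4 RPM and Stalker3T at 39.0 RPM were the other families just outside the minimum, with ratios of 0.852 and 1.13. Tc3 at 40.2 RPM was the nearest inside it, with a ratio of 1.39 (0.991 to 1.94).

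Summed over the 5 telomeric elements, H3K9me3 reads were 846 RPM in piwi and 5036 RPM in white knockdown, and input reads 2011 and 2551 RPM, a ratio of sums of 0.213. The 4 elements kept had a median ratio of 0.234, beside 0.888 over all 114 families. Input reads of the single elements did not differ from the control in the same direction. Input was 0.610 times the control for HeT-A and 0.639 times for TAHRE, but 1.80 times for TART-B and 2.10 times for TART-A. Under tj-GAL4, piwi over white input was 0.617 for HeT-A, 0.506 for TAHRE, 2.33 for TART-B and 1.38 for TART-A. Input differences in these directions were thus present under both drivers. Without input the nos H3K9me3 ratios were 0.0991 for HeT-A, 0.104 for TART-C, 0.195 for TAHRE, 0.221 for TART-B and 0.707 for TART-A. H3K9me3 reads were fewer in piwi knockdown for all 5, but for TART-A the difference by these RPM stays under 1.5-fold without input. On the other scale of the authors' deposited fold, also without input, TART-A was at 0.593. Copy number in the 2 lines was not measured apart from the input.

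**Figure D2:**
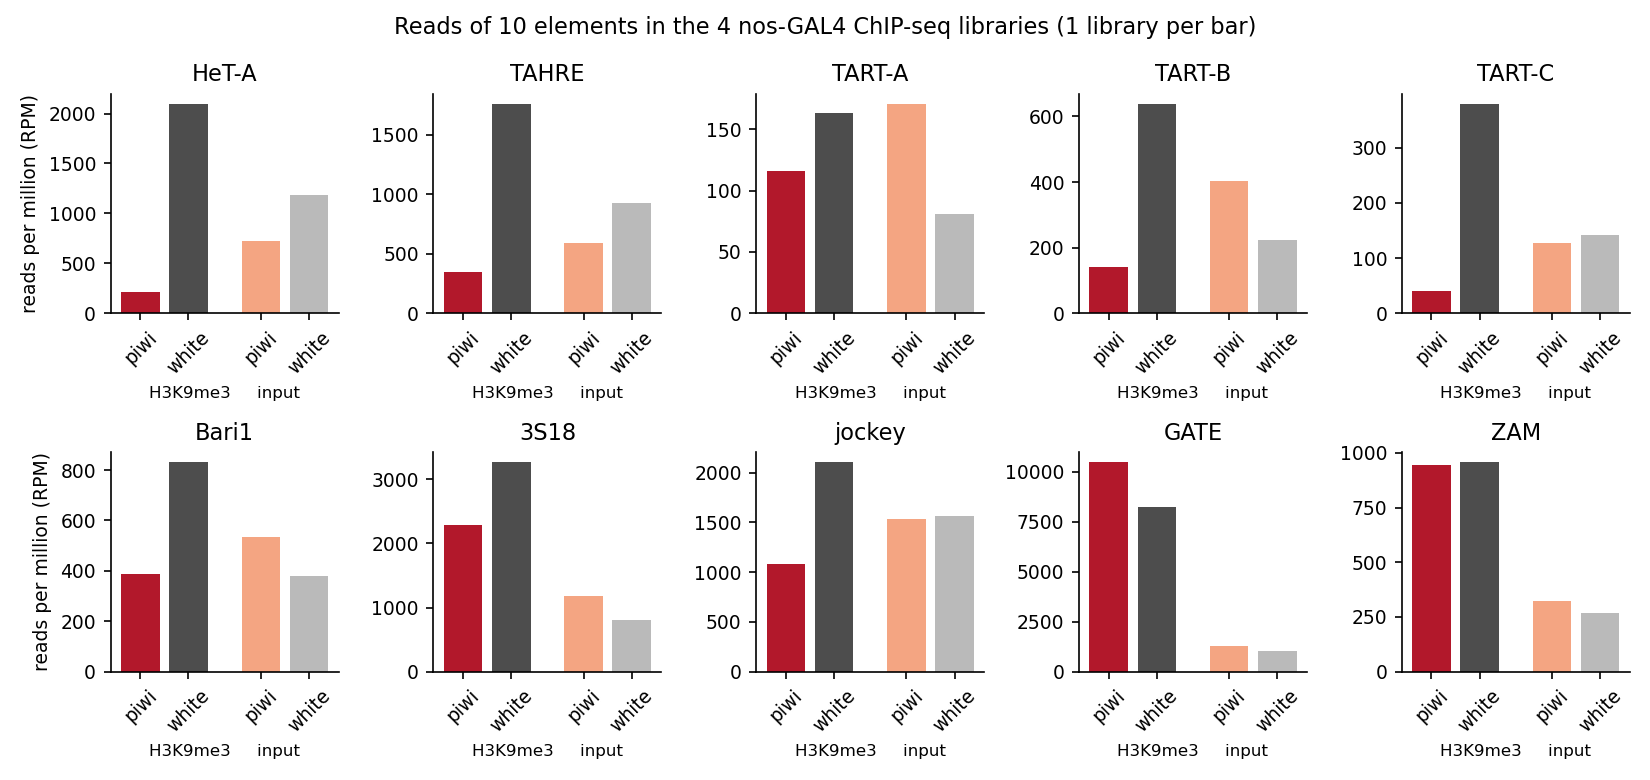
RPM of 10 families in the 4 nos-GAL4 ChIP-seq libraries, H3K9me3 on the left and input on the right of each panel, piwi knockdown before white knockdown, each bar 1 library on a linear axis from 0 that differs between panels. H3K9me3 of HeT-A was 208 RPM in piwi and 2096 RPM in white knockdown, whereas GATE was higher, at 10468 and 8239 RPM, and ZAM nearly level, at 943 and 956 RPM.

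Among LTR retrotransposons, which copy themselves through an RNA as retroviruses do, the lowest ratio was that of 3S18, a BEL-Pao element. It had 2284 RPM of H3K9me3 in piwi and 3261 RPM in white knockdown over inputs of 1177 and 803 RPM. Its enrichment of 1.94 in piwi against 4.06 in white knockdown made a ratio of 0.478 (0.448 to 0.510), and without input it was 0.700. Unlike the telomeric elements, 3S18 stayed enriched over input after the knockdown.

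Burdock, a gypsy-type element of the germline, had 693 RPM in piwi and 1007 RPM in white knockdown, with inputs of 676 and 538 RPM and a ratio of 0.549 (0.501 to 0.601). Transpac was at 0.605 (0.556 to 0.658) and mdg3 at 0.630 (0.586 to 0.678). Copia, which encodes its own virus-like particle, was at 0.662 (0.615 to 0.712). All 4 had more input reads in piwi knockdown, by 1.22 to 1.31 times, and without input their ratios were 0.688 for Burdock, 0.737 for Transpac, 0.827 for mdg3 and 0.818 for copia. By these RPM they were lower in each reckoning, but at least 1.5-fold lower only relative to input. In the authors' deposited fold, which has no input and another scale, Burdock was at 0.578, Transpac at 0.618, copia at 0.686 and mdg3 at 0.694. Transpac and copia carried little of the mark to begin with, at enrichments of 0.392 and 0.578 in piwi and 0.648 and 0.874 in white knockdown.

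Of the LINE elements outside the telomeres, jockey had the lowest ratio. Its H3K9me3 reads were 1081 RPM in piwi and 2103 RPM in white knockdown, and its input was nearly equal, at 1530 and 1562 RPM. The ratio was 0.525 (0.493 to 0.559) relative to input and 0.514 (0.491 to 0.538) without it, so the input made little difference to it. Juan, another LINE, was at 0.571 (0.506 to 0.645), from 280 RPM in piwi and 428 RPM in white knockdown, and at 0.655 without input. I-element, the cause of I-R hybrid dysgenesis, was at 0.657 (0.622 to 0.695), but without input at 0.907, with input reads 1.38 times the control.

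Bari1, a Tc1-like DNA transposon that moves by excision, was the only DNA element among the 13. It had 389 RPM of H3K9me3 in piwi and 830 RPM in white knockdown over inputs of 535 and 380 RPM, a ratio of 0.333 (0.298 to 0.372), and 0.468 without input. The 6 families that were at least 1.5-fold lower both with and without input were TART-B, HeT-A, TAHRE, Bari1, jockey and Juan. In the H3K9me3 libraries alone the seventh was blood, an LTR element, at 0.663 (0.639 to 0.687), whose ratio relative to input was 0.713 (0.676 to 0.753).

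Whether an element was marked below or above its input also differed between the knockdowns. In white knockdown 13 of the 114 families had fewer H3K9me3 than input RPM, and in piwi knockdown 19 had. The 7 families above 1 in white and below 1 in piwi knockdown were HeT-A, TAHRE, TART-A, TART-B, Bari1, jockey and mdg3. Of 23 families with a control enrichment of 5 or more, 0 were at least 1.5-fold lower, and their ratios ran from 0.707 to 1.04. Among 44 families with control enrichments of 1 to 3, 9 were at least 1.5-fold lower, and in the range 3 to 5 it was 1 of 34, which was 3S18. Under 1 it was 3 of 13, which were Juan, Transpac and copia. Because the control enrichment is also the denominator of the ratio, this is a description of where the low ratios lie and not a relation between independent values.

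**Figure D3:**
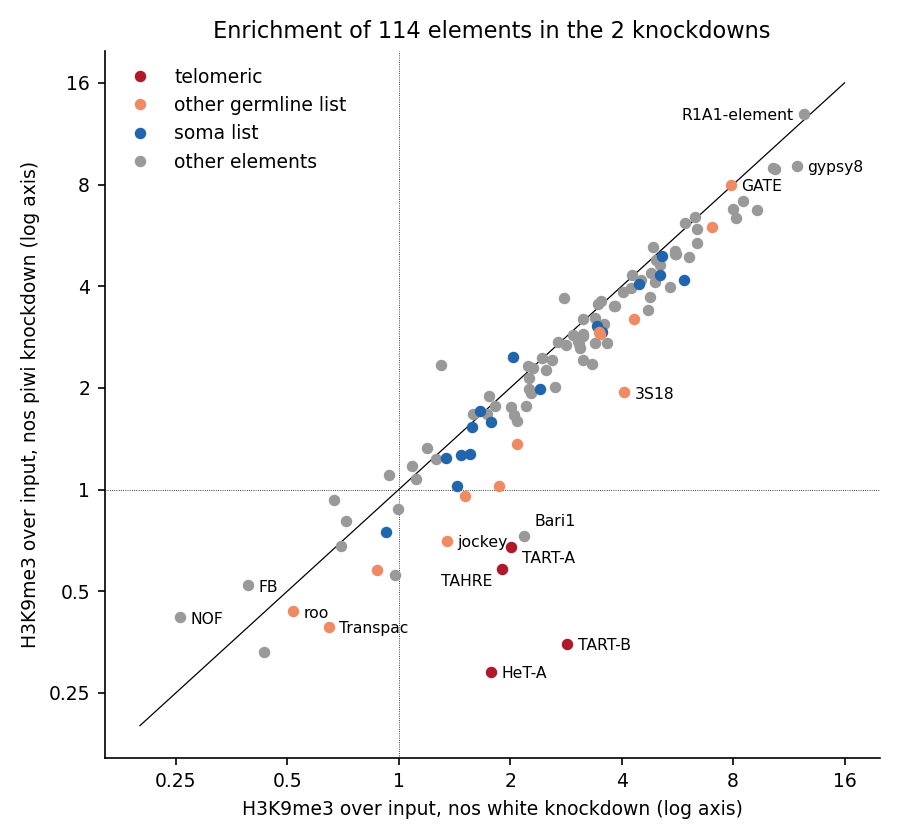
H3K9me3 over input in nos piwi knockdown against that in nos white knockdown for 114 families (log axes, 1 point per family), with a line of equality and dotted lines at an enrichment of 1. HeT-A, at 0.288 in piwi and 1.77 in white knockdown, and TART-B, at 0.349 and 2.86, are far below the line, while GATE and R1A1-element are on it.

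The germline list of 18 families, drawn up from general knowledge with earlier results of these data known, had 17 members kept. Of these, 11 were at least 1.5-fold lower and 0 higher, with a median ratio of 0.630, beside 13 of 114 (11.4%) and 0.888 over all families. Without the telomeric elements it was 7 of 13, with a median of 0.662. In the H3K9me3 libraries alone the 17 had a median of 0.737, with 4 at least 1.5-fold lower, and the 13 outside the telomeres a median of 0.827, with 1 (jockey) at least 1.5-fold lower. The list was not uniform. Roo, the most abundant element in the input, was at 0.843 (0.817 to 0.871), Doc at 0.846 (0.816 to 0.877), Max-element at 0.855 (0.805 to 0.908), micropia at 0.824 (0.760 to 0.893) and diver at 0.742 (0.690 to 0.799). GATE was as strongly marked in both knockdowns, with 10468 RPM in piwi and 8239 RPM in white knockdown over inputs of 1309 and 1045 RPM, enrichments of 7.99 and 7.89 and a ratio of 1.01 (0.961 to 1.07).

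The soma list, 16 families assigned to follicle cells with earlier results of these data known, had 0 members past 1.5-fold in either direction, beside 11.4% of all families lower and 1.75% higher. In which cells each of them is active was not measured here. Without input 1 of the 16, blood, was at least 1.5-fold lower, and with the totals behind the authors' fold 2 were. Its median ratio was 0.873 relative to input and 1.01 in the H3K9me3 libraries alone, so the direction turned with the input. In nascent sense RNA under nos (GRO-seq, RPM + 1), 7 of the 16 were at least 2-fold higher, beside 39 of 114 (34.2%). Blood was among them, at 5.58-fold, so the list is not a set without change under the germline driver. ZAM, an LTR element of follicle cells, had 943 RPM in piwi and 956 RPM in white knockdown, a ratio of 0.825 (0.736 to 0.925) with input reads 1.20 times the control. Gypsy, an endogenous retrovirus, was at 0.953 (0.891 to 1.02) and Idefix at 0.974 (0.920 to 1.03). The lowest members were gtwin at 0.707 (0.618 to 0.810) and blood, and the highest was Tabor at 1.21 (1.10 to 1.34), whose H3K9me3 reads alone were level, at 976 RPM in piwi and 966 RPM in white knockdown.

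By class, the counts are to be read against 13 of 114 families (11.4%) at least 1.5-fold lower, and the BEL-Pao, LINE and Tc1 and mariner type shares were near it. The median ratio was 0.882 for the 44 gypsy-type LTR families, with 3 at least 1.5-fold lower, 0.848 for the 8 BEL-Pao families, with 1, and 0.828 for the 4 copia-type families, with 1. The 23 LINEs of the jockey, F and I types had a median of 0.888, with 3 at least 1.5-fold lower. For the 6 elements of the R1 and R2 types, which target ribosomal RNA genes or are related to those that do, the median was 0.928, with 0 past the size either way. R1A1-element, with the highest enrichment of the families kept, was at 12.9 in piwi and 12.5 in white knockdown, a ratio of 1.04 (1.01 to 1.07). DNA elements had the highest medians, 0.971 for 9 Tc1 and mariner type families, with Bari1 at least 1.5-fold lower, and 1.08 for 11 others. Relative to the median family, the BEL-Pao and copia-type medians were below it and both DNA medians above it, and in the H3K9me3 libraries alone the Tc1 and mariner type median turned to 0.945, below the 0.987 of all families.

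Higher ratios were few, and the 2 highest came from families near the RPM minimum. Transib4 had 116 RPM of H3K9me3 in piwi and 90.4 RPM in white knockdown over inputs of 49.8 and 69.4 RPM, a ratio of 1.79 (1.36 to 2.37), and without input it was 1.29. NOF, a gene-bearing unit of foldback elements, had 108 RPM in piwi and 43.2 RPM in white knockdown over inputs of 257 and 168 RPM, a ratio of 1.63 (1.28 to 2.07) and 2.50 without input. FB, the foldback element itself, was at 1.33 and gypsy11 at 1.32 (1.05 to 1.66). Both NOF and FB remained below input in the mark, NOF at 0.419 in piwi and 0.257 in white knockdown and FB at 0.520 and 0.392. The remaining highest families were Tc3, Tabor, hopper at 1.17 and pogo at 1.12, and the intervals of Tc3 and pogo included 1.

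The same ratio was then computed for the somatic knockdown under tj-GAL4, which has its own white control libraries. Of 113 families kept under both drivers, 8 were at least 1.5-fold lower in the nos than in the tj ratio (7.08%) and 3 at least 1.5-fold higher (2.65%). The lowest were HeT-A, at 0.162 under nos against 1.08 (1.01 to 1.15) under tj, TART-B at 0.122 against 0.788, TART-A at 0.336 against 1.10 and TAHRE at 0.305 against 0.995. The nos ratio divided by the tj ratio was 0.151 for HeT-A (0.133 to 0.171), 0.155 for TART-B (0.126 to 0.191), 0.305 for TART-A (0.237 to 0.392) and 0.307 for TAHRE (0.269 to 0.349). These 4 were the families at least 2-fold lower under nos (3.54%), and 1, transib4, was at least 2-fold higher (0.885%). Relative to input, the low values over telomeric elements were thus seen under the germline driver, and 3 of these 4 had tj ratios close to 1. The tj input was 0.617 times the control for HeT-A and 0.506 times for TAHRE, but 2.33 times for TART-B and 1.38 times for TART-A. In the tj H3K9me3 libraries alone, HeT-A and TAHRE were therefore lower in piwi than in white knockdown, and TART-B and TART-A higher.

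3S18 was at 0.478 under nos and 0.866 under tj, and Bari1 at 0.333 and 0.573. Bari1 and copia were the 2 families at least 1.5-fold lower under both drivers, copia at 0.662 under nos and 0.650 under tj. Of the families at least 1.5-fold lower under tj, 5 of 113 (4.42%), the other 3 were gypsy5, ZAM and HMS-Beagle2, and their nos ratios were 0.829, 0.825 and 0.889. The tj ratio was 0.676 for Burdock, 0.731 for jockey, 0.807 for I-element, 0.809 for Transpac, 0.848 for mdg3 and 0.856 for Juan. Their nos over tj values were 0.668 to 0.814, and that of copia was 1.02, so none passed 1.5-fold. Besides the telomeric elements, the 8 families lower under nos than tj were 3S18, Bari1, Fw3 and G6. FB, Tc3 and transib4 had the highest nos over tj values, at 1.61, 1.55 and 2.01, and the fourth was HMS-Beagle2 at 1.43 (1.28 to 1.60). In the H3K9me3 libraries alone HeT-A, TART-B, TART-A, TAHRE and Bari1 were at least 1.5-fold lower under nos than under tj. FB, Tc3 and transib4 were then at 1.31, 1.13 and 1.20, and the 1 family at least 1.5-fold higher was G-element, at 1.61 against 0.951 relative to input. The counts also depend on the library totals: 44 families were lower and 0 higher with those behind the authors' fold, and 5 lower and 7 higher with those of the region lists. Each driver had 1 library of each kind, so these differences have counting intervals and no replicate test.

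**Figure D4:**
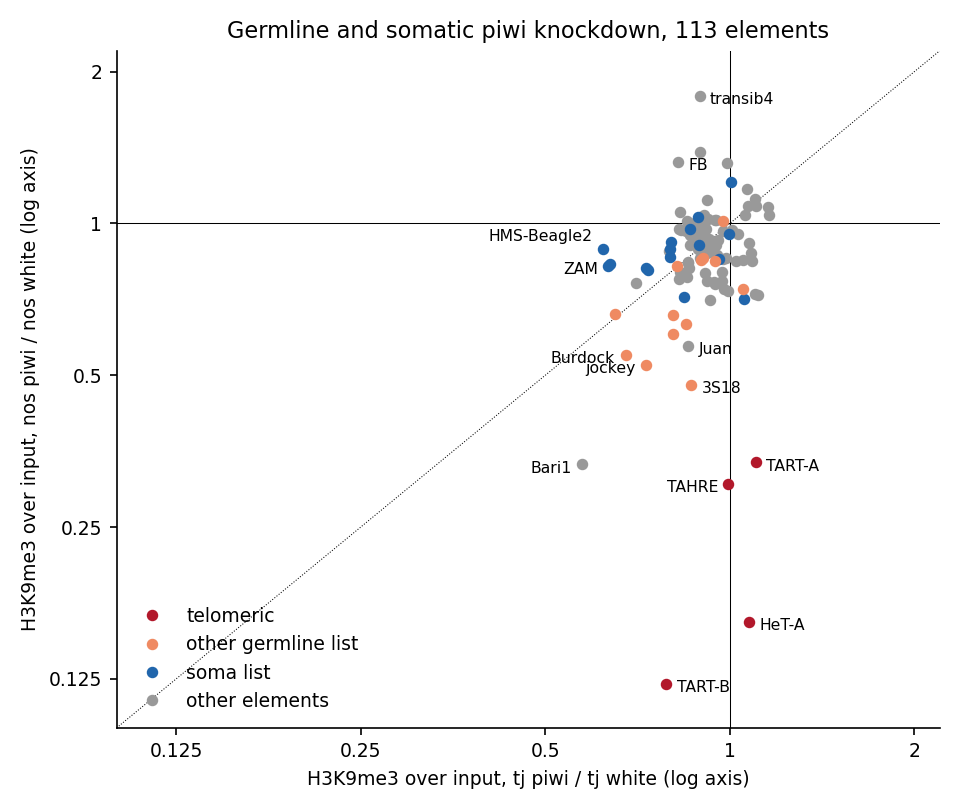
H3K9me3 ratio under nos-GAL4 (vertical) against that under tj-GAL4 (horizontal) for 113 families kept under both drivers (log axes, 1 point per family, dotted line of equality). The telomeric elements are low under nos, at 0.122 to 0.336, and between 0.788 and 1.10 under tj, while ZAM and HMS-Beagle2 are lower under tj.

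The nos GRO-seq libraries give the nascent RNA of the same families in separate samples, 1 per knockdown. Fold changes of RNA are of RPM + 1, which understates changes of low elements. In piwi knockdown 39 of the 114 families (34.2%) had 2-fold or more nascent sense RNA. Their median H3K9me3 ratio was 0.815, and 12 of the 39 were at least 1.5-fold lower in the mark, with 0 higher. The other 75 families had a median of 0.920, and 1 of them, jockey, was at least 1.5-fold lower, its nascent RNA being 1.93-fold higher. Of the 13 families with at least 1.5-fold less mark, 12 thus also had at least 2-fold more nascent RNA.

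The converse was not the case. Of the 39 families with at least 2-fold more nascent RNA, 21 had H3K9me3 ratios between 0.8 and 1.25. Transpac had the largest nascent change, 1006 RPM in piwi and 62.6 RPM in white knockdown (15.8-fold), beside an H3K9me3 ratio of 0.605. The next was 3S18, with 944 and 77.5 RPM (12.0-fold) beside 0.478. Gypsy12 followed at 8.81-fold beside 0.834, micropia at 6.78-fold beside 0.824 and GATE at 6.52-fold beside 1.01. HMS-Beagle was 6.49-fold higher beside a ratio of 0.851, blood 5.58-fold beside 0.713 and invader3 5.41-fold beside 0.879.

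HeT-A was 5.14-fold higher in nascent sense RNA (251 against 48.0 RPM), TART-B 4.77-fold, TART-A 4.31-fold and TAHRE 2.82-fold, so their nascent changes were smaller than those of several elements that lost little mark. In steady-state sense RNA HeT-A had 8533 RPM in piwi and 24.3 RPM in white knockdown, and GATE 744 and 6.31 RPM, which are the authors' values with no spread. Bari1 was 2.27-fold higher in nascent sense RNA, at 31.5 RPM in piwi and 13.3 RPM in white knockdown. Across the 114 families the log2 H3K9me3 ratio and the log2 nascent change had, as a description, r -0.42 (Pearson) and rho -0.39 (Spearman), and without the telomeric elements -0.39 and -0.35. Families are not replicates, and they share the 4 ChIP-seq and 2 GRO-seq libraries. In the H3K9me3 libraries alone r was -0.24 and rho -0.035 with the telomeric elements, and r -0.11 and rho 0.044 without them. The families with at least 2-fold more nascent RNA had a median input ratio of 1.22, against 1.08 for the others, and the part of this in the relation was not tested. Nascent antisense RNA was 2-fold or more higher for 17 of the 114 families (14.9%), most of all gypsy11, at 28.1 RPM in piwi and 4.51 RPM in white knockdown beside an H3K9me3 ratio of 1.32, and McClintock, at 74.6 and 14.1 RPM beside 1.01.

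**Figure D5:**
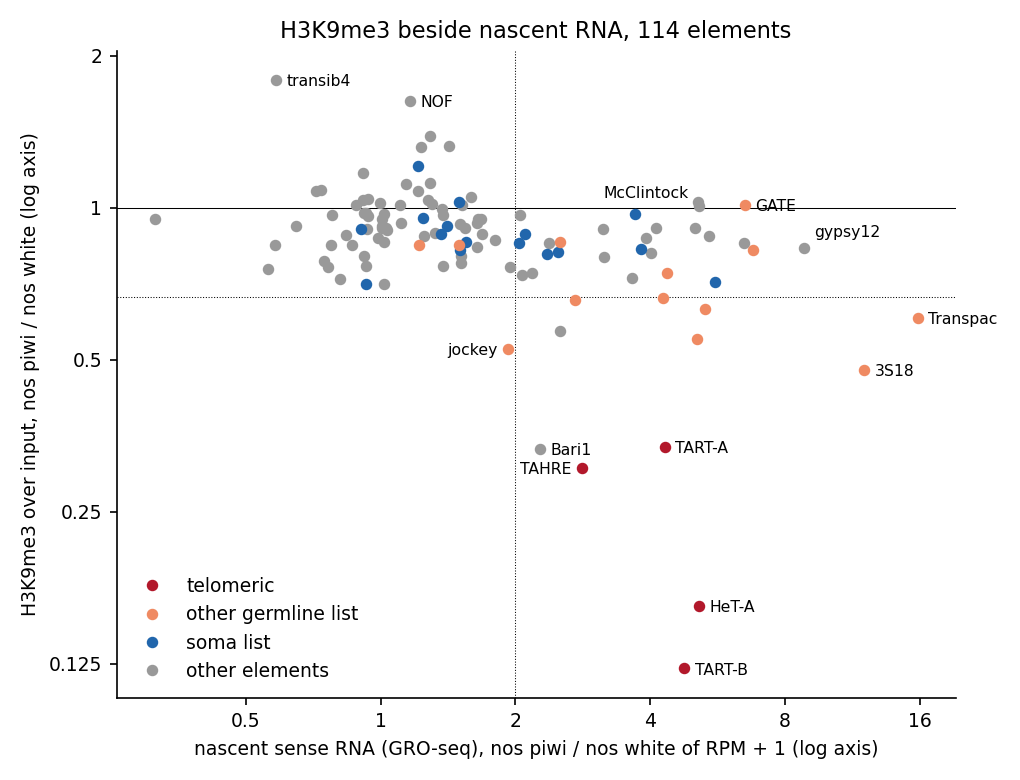
H3K9me3 ratio (vertical) against the fold change of nascent sense RNA (RPM + 1) in GRO-seq (horizontal), nos piwi over nos white, for 114 families (log axes, 1 point per family). Dotted lines mark 2-fold more nascent RNA and 1.5-fold less mark: 12 of 39 families to the right of the first are below the second, against 1 of 75 to its left.

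The scale of all these ratios rests on the library totals by which the authors divided. The totals were recovered from the transposon table as the smallest that turn every value into whole reads, so the whole reads are no check of them. The authors' deposited table of nos folds holds the same reads on another scale: its fold over the ratio of reads was 0.997 for every family, whereas the totals of the nos libraries give 1.19 and those of the tj libraries 0.997. The authors' deposited table for tj shows the reverse, 1.19 where its own totals give 0.997. Each driver's fold is thus on the ratio of totals that the transposon table gives to the other driver, and which of them is right cannot be told from these tables. The region lists of the same H3K9me3 libraries have totals of their own, 987157 in nos piwi and 1385901 in nos white (white over piwi 1.40), and 1435888 and 1451863 under tj (1.01). In the region lists the nos piwi library was the smaller of the pair, as in the transposon table.

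With the totals behind the authors' fold every nos ratio is 0.839 times the value given, and with the totals of the region lists 1.18 times. Telomeric medians were low on each scale, at log2 -2.17 as given, -2.42 with the totals of the authors' fold and -1.93 with those of the region lists. The median of all families was -0.17, -0.42 and 0.070, so whether the bulk of families lost a little of the mark depends on the scale. In the authors' deposited table, 18 of the 114 families had an adjusted p-value under 0.05 and a fold below 1, and 1, R1A1-element, a fold above 1. These p-values compare single libraries. The submitters' processing notes name DESeq for the RNA-seq and GRO-seq samples and not for ChIP-seq, so the test used on these ChIP-seq values is not stated there. The calls in the authors' deposited table included 9 of the 13 families named above, without I-element, Juan, TART-A and mdg3. The 2 sets rest on unlike measures, since the authors' fold is of H3K9me3 reads without input and the 13 were chosen relative to input.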

How the data were processed

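ChIP-seq for H3K9me3 and its input was compared between nos piwi and nos white knockdown ovaries, with tj ChIP-seq and nos GRO-seq and RNA-seq beside it; groups come from the sample titles. Per the submitters' processing notes, Bowtie2 2.0.0 and SICER 1.1 were used for ChIP-seq and build dm3, with no step named for either. The authors deposited RPM per transposon family, per the file headers, and a fold ratio with p-values per family in a further pair of tables. Reads of related families cannot be told apart. The 6 columns of scaled reads in those tables name no sample and were left out.

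Library totals were the smallest that made every RPM a whole number of reads within 1e-06, and such a total was found for each library. Ratios were taken from RPM with no pseudocount, and 95% counting intervals are normal on the log scale, with a variance equal to the sum of the reciprocal reads. PCR copies were not told apart by molecular identifiers, so reads are not independent molecules. RNA folds used a pseudocount of 1 RPM. With 1 library per group no model was fitted. The calculation was checked on simulated data.

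The members and lists were chosen with earlier results of these data known. Named families were the telomere list, the 10 lowest and 8 highest ratios, examples of the germline and soma lists, the 8 largest nascent increases, the 6 lowest and 4 highest nos over tj values and those next to the minimum; others named were chosen after their values were seen. Alternatives were no input, minimums of 20, 100 and no RPM, centring, other totals and pseudocounts of 0.1 and 5. Software was Python 3.11.15, numpy 2.4.6, pandas 2.3.3 and matplotlib 3.10.9.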

Additional observations from a re-analysis of the deposited data

Results flagged for a closer look

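For 3 of 113 families (2.65%) the counting intervals, relative to input and on the totals of the transposon table, were on opposite sides of 1 under the 2 drivers. HeT-A had an H3K9me3 ratio of 0.162 under nos and 1.08 under tj. Rt1a, a LINE of the R1 type, was at 0.844 under nos and 1.09 under tj. FB was at 1.33 under nos and 0.823 under tj. The side of 1 depends on the input and the totals. In the H3K9me3 libraries alone HeT-A was lower under both drivers, its tj input being 0.617 times the control. With the totals of the region lists every nos ratio is 1.18 times the value given, which brings Rt1a close to 1. With the totals behind the authors' fold every tj ratio is 1.19 times, which brings FB close to 1 under tj. Each value is from 1 library of each kind per condition, so the difference between drivers was not tested over replicates.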

How the results depend on the processing

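The 13 families at least 1.5-fold lower became 7 without input, 28 with the totals behind the authors' fold and 8 with those of the region lists; TART-B, HeT-A, TAHRE, Bari1 and jockey passed in each of these and after centring. Families at least 1.5-fold higher numbered 2, against 0 at 100 RPM, 1 with the authors' totals and 5 with the region totals, and at least 2-fold higher 0, against 1 each without input, with centring and with the region totals. The median log2 ratio of all families was -0.17, against -0.018 without input, 0 by construction with centring, -0.42 with the authors' totals and 0.070 with the region totals. In the same order of settings the germline list was at -0.67, against -0.44, -0.49, -0.92 and -0.42, the soma list at -0.20, against 0.0088, -0.025, -0.45 and 0.045, families with at least 2-fold more nascent RNA at -0.29, against -0.069, -0.12, -0.55 and -0.054, and the others at -0.12, with 0.051 after centring, -0.37 and 0.12 with the other totals. The telomere list was at -2.17, and at -2.62 with minimums of 20 RPM or none, where TART-C enters, or 100 RPM, where TART-A leaves, and -2.42 and -1.93 with the other totals. Members at least 1.5-fold lower in the germline list were 11, against 7 with centring or the region totals and 4 without input, and in the soma list 0, against 2 with the authors' totals and 1 without input. Under nos relative to tj, 8 families were lower, against 5 without input, at 100 RPM or with the region totals and 44 with the authors' totals, and 3 higher, against 1 without input or at 100 RPM, 5 with no minimum, 0 with the authors' totals and 7 with the region totals. With pseudocounts of 0.1 and 5 RPM the medians of the families grouped by nascent RNA stayed at -0.29 and -0.12. At 5 RPM the groups themselves changed, to 34 and 80 families. The cause of the moves with the input was not tested; those with totals and centring follow from the scale. Under nos, the 13 lower and 2 higher families and the telomere and germline medians kept their direction in each setting that kept them. The family higher under nos than tj without input, G-element, was at 1.61 there and 0.951 relative to input. No paired analysis was possible because each group has 1 sample. The depth of 2514000 to 2987000 reads leaves wide intervals for families near 40 RPM.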

Other observations

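Input reads were at least 1.5-fold higher in nos piwi than in nos white ovaries for 6 of the 114 families (5.26%) and at least 1.5-fold lower for 2 (1.75%), HeT-A and TAHRE. HeT-A and TAHRE were also lower in input under tj, at 0.617 and 0.506 times the tj control. Under nos, G6 and G-element, LINEs of the jockey type, had 1.75 and 1.57 times the input reads of the control. Their H3K9me3 reads were 1.27 and 1.37 times the control, against ratios relative to input of 0.725 and 0.873. Of the families under the minimum, Tirant had 13.96-fold more nascent sense RNA and an H3K9me3 ratio of 0.454 (0.295 to 0.697) from input reads 2.13 times the control, with 0.968 without input. P-element was at 0.388 (0.196 to 0.767), from 7.56 RPM in its lowest library.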
